A study of Mus musculus with 9 samples.

Results

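Glucose entry, glycolysis and the pentose phosphate pathway were followed as 37 genes in hair follicle bulge stem cells of mice on dietary restriction (DR, 4 libraries) and of mice fed without limit (ad libitum, AL, 5 libraries). The genes were taken by symbol from a fixed list of transporters and enzymes, and all 37 were among the 35006 gene symbols of the count tables. All animals were C57BL/6J mice housed one to a cage, and DR mice received each day 70% of the food that AL mice matched for body weight and gender ate. Cells positive for CD34 and alpha6 integrin were sorted from pools of 3 mice, and the labels do not say whether each library had a pool of its own, so p-values measure the spread between libraries, which may be technical. The labels name 2 mouse suppliers and animal houses without tying them to samples, and give no age, irradiation state, hair cycle stage or time of sampling.

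Cells take up glucose through the Slc2a transporters, trap it as glucose 6-phosphate by hexokinase and split it to pyruvate in glycolysis. The pentose phosphate pathway branches off at glucose 6-phosphate: its oxidative branch yields NADPH, and its reversible non-oxidative branch exchanges ribose phosphates with glycolytic sugars. Most steps have several isoenzymes that differ in regulation and tissue. Follicle stem cells are known for high glycolytic activity, and lactate production has been tied to their activation.

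Libraries held 27715354 to 32426255 gene counts in DR and 26119459 to 33559312 in AL (exact permutation p = 0.548, two-sided). Markers of the bulge and basal layer were abundant in every library, at a summed 23689 to 26098 CPM (counts scaled by TMM to a common library total) in DR and 33458 to 49361 CPM in AL, and 7 of the 11 were lower in DR. Of the marker lists for other cells, dermal fibroblast genes summed to 23.0 to 43.6 CPM in DR and 85.3 to 140.6 CPM in AL, with 3 of 5 tested lower and 1 higher. Genes of cycling cells summed to 10.1 to 33.1 CPM in DR and 84.9 to 642 CPM in AL, where AL replicate 5 was lowest, and all 8 were lower in DR. Melanocyte genes summed to 119 to 172 CPM in DR and 108 to 227 CPM in AL, with 2 of 4 tested lower. These were Dct (-2.17, adjusted p = 0.0021 by edgeR) and Tyrp1 (-2.13, adjusted p = 0.015). Mitf, the highest gene of the list, had a log2 fold change of -0.10 (edgeR adjusted p = 0.75). The largest sums of the lists for other cells were those of suprabasal and sebaceous genes, with Krt10 the highest. They were 1465 to 4587 CPM in DR, from replicate 1 to replicate 3, and 1376 to 4133 CPM in AL, from replicate 5 to replicate 3. None of the 5 tested genes of this list passed. Over all tested genes 21.7% were lower in DR and 19% higher. Sums of the bulge and basal, fibroblast and cycling lists were lower in every DR library than in any AL library. Melanocyte sums overlap between the diets, and so do suprabasal and sebaceous sums. The part of these lists in the differences between the diets given here was not tested. In bulk samples, fewer cells of a type and less RNA per cell cannot be told apart.

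Most glycolytic and pentose phosphate enzymes had log2 fold changes below 0, not all of them past the threshold, while single isoforms went the other way. By sign alone, 13 of 15 tested enzymes from hexokinase to pyruvate kinase and 6 of 7 of the pentose phosphate pathway were lower in DR. The same held for 8025 of all 15447 tested genes. Of the 37 genes, 34 passed the low-count filter. Of these, 14 were lower and 4 higher in DR by edgeR's quasi-likelihood test (adjusted over all genes, threshold 0.05), and 16 did not pass. Over all 15447 tested genes, 40.7% passed in either direction, 21.7% lower and 19% higher in DR, against 52.9%, 41.2% and 11.8% of the tested pathway genes. The median log2 fold change (DR over AL) was -0.30 for the pathway and -0.02 for all tested genes. The lower genes had log2 fold changes of -1.80 to -0.25 and the higher ones of 0.43 to 1.92. A change of at least 2-fold was reached by 3 of the lower genes (Slc2a4, Eno1 and, at the limit, Pfkfb4) and 1 of the higher (Pfkfb3).

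**Figure D1:**
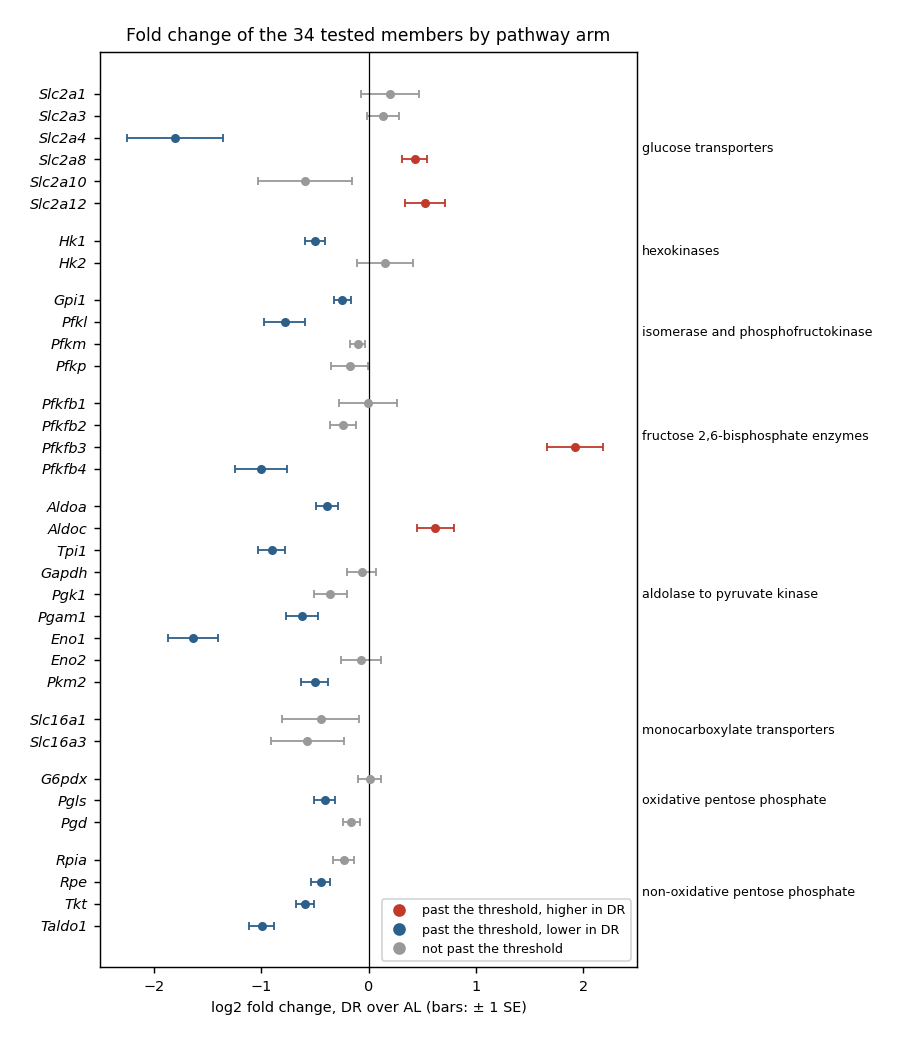
Log2 fold change, DR over AL, of each of the 34 tested genes (x axis; bars show 1 SE either side), grouped by pathway arm from top to bottom. Pfkfb3 lies far to the right at 1.92, and all 4 genes of the non-oxidative pentose phosphate branch lie left of 0.

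Promoters of 3 genes are shown, chosen for the ratio of Pfkfb3 to Pfkfb2, which differed between the diets, and for Taldo1. Pfkfb2 alone did not pass the test, and Taldo1 had the largest fall of the pentose phosphate genes. Each window runs from 250 bases before to 50 after a RefSeq transcript start (build GRCm38.p6, whereas the counts rest on mm9), 5′ to 3′ on the gene's strand. Capitals mark ACGTG on either strand, the core of the hypoxia response element. Within the E box CACGTG, which carbohydrate response factors and Myc bind, it occurs on both strands.
Pfkfb3 outer start, chr2:11553880-11554179, minus strand: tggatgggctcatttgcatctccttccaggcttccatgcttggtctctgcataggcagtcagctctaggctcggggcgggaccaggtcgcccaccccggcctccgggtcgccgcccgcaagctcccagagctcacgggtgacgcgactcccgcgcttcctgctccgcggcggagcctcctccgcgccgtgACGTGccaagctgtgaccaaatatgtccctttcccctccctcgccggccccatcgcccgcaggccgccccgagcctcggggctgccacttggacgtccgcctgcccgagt
Pfkfb3 inner start, chr2:11502041-11502340, minus strand: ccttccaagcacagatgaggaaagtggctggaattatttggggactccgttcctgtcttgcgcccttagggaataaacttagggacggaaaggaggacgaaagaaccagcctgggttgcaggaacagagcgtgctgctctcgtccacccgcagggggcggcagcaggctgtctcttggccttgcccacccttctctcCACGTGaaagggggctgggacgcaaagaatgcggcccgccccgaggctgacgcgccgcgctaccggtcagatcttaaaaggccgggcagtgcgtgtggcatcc
Pfkfb2, 1 of 3 starts, chr1:130715772-130716071, minus strand: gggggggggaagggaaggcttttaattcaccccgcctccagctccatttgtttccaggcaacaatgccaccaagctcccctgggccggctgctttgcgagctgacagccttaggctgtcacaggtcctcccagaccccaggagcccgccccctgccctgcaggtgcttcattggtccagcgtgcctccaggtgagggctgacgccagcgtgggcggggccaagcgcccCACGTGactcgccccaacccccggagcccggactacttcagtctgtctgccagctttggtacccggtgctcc
Taldo1, chr7:141391910-141392209, plus strand: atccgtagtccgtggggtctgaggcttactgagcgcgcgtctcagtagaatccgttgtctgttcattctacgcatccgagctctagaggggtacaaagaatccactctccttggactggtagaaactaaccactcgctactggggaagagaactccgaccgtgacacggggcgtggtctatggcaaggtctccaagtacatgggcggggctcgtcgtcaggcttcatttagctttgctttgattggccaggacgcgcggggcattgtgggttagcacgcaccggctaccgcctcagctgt
In the window of Pfkfb3's inner start and in that of the Pfkfb2 start shown the capitals form a CACGTG. In the window of Pfkfb3's outer start there is a single ACGTG, and that of Taldo1 has neither. The Pfkfb2 windows not shown hold no CACGTG, and only 1 of them an ACGTG. The window of Pfkfb4, which fell, has neither. Promoters were found for 35 of the 37 genes, 52 in all. ACGTG was in 42.3% of these 52 and in 19.6% of all 32851 promoters of the table, whose mean GC content was 58.5% and 53.8%. CACGTG, which overlaps it, was in 9.62% and 7.15%. The glucocorticoid response element, searched on both strands as AGAACA and TGTTCT with any 3 bases between, was in none of the 52 and in 3 of the 32851. Of genes with a promoter in the table, ACGTG was present for 4 of 13 that were lower in DR, 2 of 4 that were higher and 10 of 15 that did not pass. By arm, it was present for 6 of 9 genes from aldolase to pyruvate kinase and for none of the 4 of the non-oxidative pentose phosphate branch. Of all 35 pathway genes with a promoter, 18 (51.4%) had it. Genes with several starts have more windows, and no share per gene was counted over all genes. These matches describe the letters of the windows only.

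Among the glucose transporters, the main carrier Slc2a1 did not pass the test, the insulin-responsive Slc2a4 fell, and the intracellular Slc2a8 and the little-studied Slc2a12 rose. Slc2a1 stood at 323, 163, 261 and 260.1 CPM in the DR libraries, against 152, 163, 177, 371 and 230.1 CPM in the AL libraries (replicates in order, here and below). The groups overlap, with AL replicate 4 the highest of all 9 (log2 fold change 0.20 with SE 0.27, adjusted p = 0.58 by edgeR; 0.48 without AL replicate 4, adjusted p = 0.084, and 0.06 without DR replicate 1, adjusted p = 0.88). Per kilobase of coding transcripts' exons, Slc2a1 averaged 71.8 ± 18.8 CPM in DR and 62.4 ± 25.8 CPM in AL (SD, n = 4 and 5). Slc2a8 followed at 13.4 ± 1.30 CPM per kilobase in DR and 9.96 ± 1.49 in AL. Slc2a12 came next at 5.77 and 4.02, while Slc2a3, the high-affinity neuronal carrier, had 1.33 and 1.21.

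Slc2a4, known from muscle and fat, had 2.37, 1.53, 1.99 and 0.871 CPM in DR, against 4.77, 8.62, 7.54, 6.83 and 1.58 CPM in AL. It was low in every DR library and in AL replicate 5, and high in the other 4 AL libraries (log2 fold change -1.80 with SE 0.45, adjusted p = 0.0083 by edgeR). Markers of adipocytes, the other cells known for this carrier, summed to 0.193 to 1.08 CPM in DR and 0.0686 to 0.325 CPM in AL, and those of skeletal muscle to 1.503 to 2.88 CPM and 1.17 to 1.51 CPM, with Myh4 at 0 throughout. Slc2a8 averaged 28.3 ± 2.73 CPM in DR and 21.0 ± 3.14 CPM in AL (SD, n = 4 and 5; log2 fold change 0.43 with SE 0.12, adjusted p = 0.015 by edgeR), a call lost with library size as the only scaling (adjusted p = 0.070). The rise of Slc2a12 (0.52, SE 0.19, adjusted p = 0.045) was not stable: it did not pass without any of AL replicates 1 to 4 or DR replicates 2 to 4 (adjusted p 0.060 to 0.13), nor under upper-quartile scaling (0.070) or with library size only (0.081). It shares 8.67% of its 51-base words with Tbpl1, which also rose (0.25, adjusted p = 0.038), and the 2 cannot be told apart there. Slc2a3 (0.14, adjusted p = 0.49) and Slc2a10, at under 1 CPM (-0.59, adjusted p = 0.30), did not pass.

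Hk1, the hexokinase of most tissues, fell, and Hk2, the inducible form, did not pass. Hk1 stood at 162, 145, 149 and 132 CPM in DR, against 222, 184, 211, 195 and 226 CPM in AL. Every DR library was below every AL library (log2 fold change -0.50 with SE 0.10, adjusted p = 0.0020 by edgeR). Hk2 stood at 236, 137, 216 and 263 CPM in DR, against 156, 179, 131, 324 and 164 CPM in AL. Its highest level was in AL replicate 4, and the groups overlap (0.16, SE 0.26, adjusted p = 0.66; 0.43 without AL replicate 4, adjusted p = 0.089). Per kilobase, Hk2 had 35.7 ± 9.03 CPM and Hk1 23.5 ± 1.94 CPM in DR, while in AL Hk2 had 32.0 ± 12.8 CPM and Hk1 33.2 ± 2.89 CPM (SD), which do not differ beyond their spread. Hk3, a form of blood cells, had 2, 1, 1 and 3 counts in the DR libraries and 3, 0, 1, 2 and 1 counts in the AL libraries and was not tested.

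Of the enzymes that make fructose 1,6-bisphosphate, the liver-type phosphofructokinase Pfkl fell while the muscle type Pfkm and the platelet type Pfkp did not pass. Pfkl had 30.9, 17.5, 21.6 and 20.3 CPM in DR, against 32.5, 30.9, 36.4, 51.1 and 43.0 CPM in AL. DR replicate 1 reached the level of AL replicate 2, and the other DR libraries lay below all of AL (log2 fold change -0.78 with SE 0.19, adjusted p = 0.0072 by edgeR). Pfkm averaged 58.9 ± 2.15 CPM in DR and 63.2 ± 3.42 CPM in AL (-0.10, adjusted p = 0.28), and Pfkp 180.4 ± 23.1 CPM and 204 ± 50.8 CPM (-0.18, adjusted p = 0.45; SD, n = 4 and 5). Per kilobase, Pfkl was the lowest of the 3 in both groups, at 5.93 ± 1.52 CPM in DR and 10.2 ± 2.19 CPM in AL. Gpi1, the isomerase before this step, averaged 119 ± 5.75 CPM in DR and 141 ± 9.38 CPM in AL (-0.25, SE 0.08, adjusted p = 0.028). That call was lost without AL replicates 2, 4 or 5 or DR replicates 1, 2 or 4 (adjusted p 0.053 to 0.081) and without the low-count filter (0.071). Its near copy Gm1840, which holds 17.5% of Gpi1's 51-base words, averaged 74.8 ± 9.36 CPM in DR and 84.5 ± 7.20 CPM in AL (-0.18, adjusted p = 0.18), so the split of reads between them is uncertain.

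The largest rise was that of Pfkfb3. The Pfkfb enzymes make and break fructose 2,6-bisphosphate, the allosteric activator of phosphofructokinase, and Pfkfb3 is the isoform with the strongest kinase side. It stood at 77.6, 76.5, 74.4 and 64.4 CPM in DR, against 14.4, 20.7, 21.4, 30.4 and 9.37 CPM in AL. Even the lowest DR library was above the highest AL library, and the 4 DR values lay close together (log2 fold change 1.92 with SE 0.26, adjusted p = 2.9e-04 by edgeR). Leaving out any 1 library gave 1.75 to 2.15. Pfkfb4 went the other way, at 10.6, 5.80, 5.15 and 4.71 CPM in DR, against 12.4, 13.5, 12.7, 16.6 and 10.6 CPM in AL. DR replicate 1 matched AL replicate 5, and the other DR libraries were below all AL libraries (-1.0, SE 0.24, adjusted p = 0.0071). Pfkfb2, with 24.9% of its 51-base words in transcripts of 2 other genes, averaged 94.3 ± 12.5 CPM in DR and 111 ± 15.1 CPM in AL (-0.24, adjusted p = 0.14). Pfkfb1, the liver form, was at 1.38 ± 0.322 CPM in DR and 1.39 ± 0.467 CPM in AL (SD, n = 4 and 5; adjusted p = 0.98). Per kilobase, Pfkfb3 had 13.3 ± 1.09 CPM in DR and 3.49 ± 1.44 CPM in AL, beside 18.8 ± 2.49 CPM and 22.2 ± 3.02 CPM for Pfkfb2.

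**Figure D2:**
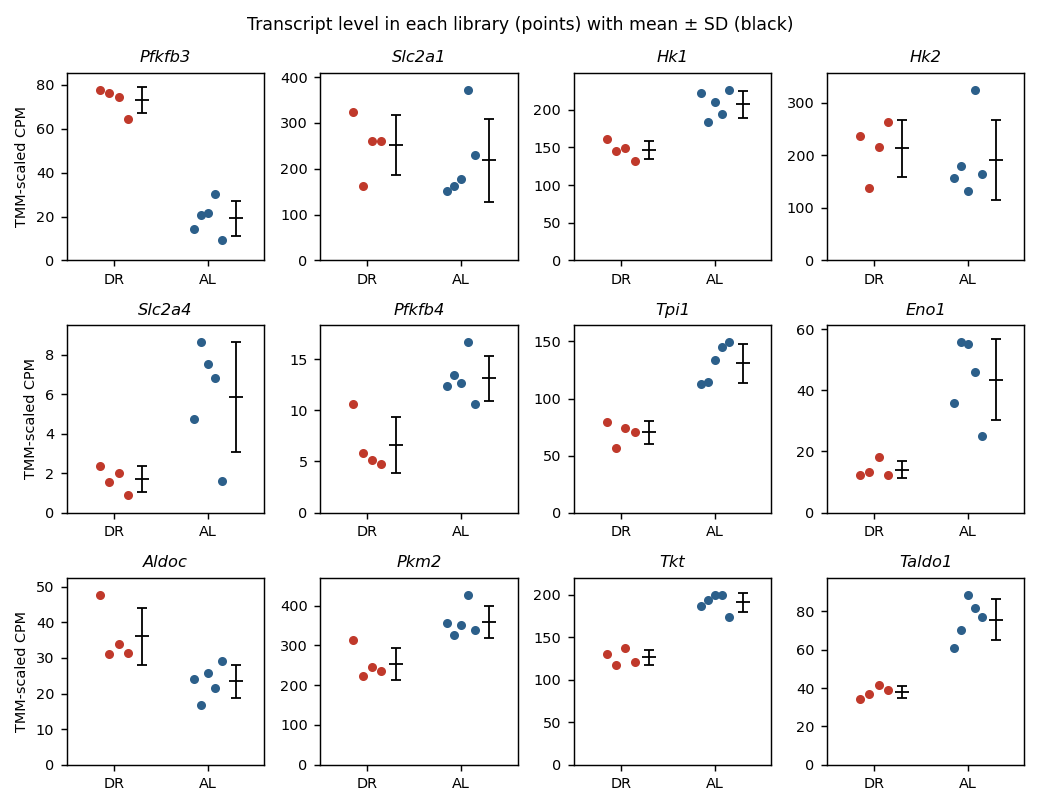
TMM-scaled CPM (y axes, from 0) of 12 genes in each DR library (red, left) and AL library (blue, right), with the group mean and SD in black. Pfkfb3 and Aldoc are higher in every DR library than in any AL library, Hk1, Tpi1, Eno1, Pkm2, Tkt and Taldo1 lower, and Slc2a1, Hk2, Slc2a4 and Pfkfb4 overlap.

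From aldolase to pyruvate kinase 5 of 9 genes fell (55.6%, against 21.7% of all tested genes) and 1 rose (11.1%, against 19%). Their summed level was 668, 498, 581 and 546 CPM in DR, against 767, 738, 830 and 920.1 CPM in AL replicates 1 to 4 and 810.2 CPM in AL replicate 5, with no overlap. Tpi1, the triose phosphate isomerase, averaged 70.2 ± 10.02 CPM in DR and 131 ± 17.1 CPM in AL (SD, n = 4 and 5; log2 fold change -0.90 with SE 0.13, adjusted p = 3.5e-04 by edgeR). Pkm2, the older symbol of Pkm, counts both splice forms of pyruvate kinase together and averaged 254 ± 39.9 CPM in DR and 359 ± 39.8 CPM in AL (-0.50, SE 0.12, adjusted p = 0.0082). Every DR library was below every AL library for both genes. Pkm2 shares 23.3% of its 51-base words with transcripts of 8 other genes, 7 of them pseudogenes, so its values rest on part of its transcripts. Aldoa, the muscle-type aldolase common to most cells, fell by 0.39 on the log2 scale (SE 0.10, adjusted p = 0.013). Its brain-type sister Aldoc rose, at 47.8, 31.0, 33.9 and 31.5 CPM in DR, against 24.1, 16.7, 25.6, 21.5 and 29.2 CPM in AL. The groups do not touch, and DR replicate 1 stands above the other 3 DR libraries (0.62, SE 0.17, adjusted p = 0.014).

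Eno1, the enolase of most tissues, had 12.4, 13.3, 18.04 and 12.3 CPM in DR, against 35.7, 55.7, 55.2, 45.9 and 24.99 CPM in AL. All DR libraries were below all AL libraries, of which AL replicate 5 was the lowest (log2 fold change -1.64 with SE 0.23, adjusted p = 3.8e-04 by edgeR). The neuronal enolase Eno2 averaged 3.57 ± 0.646 CPM in DR and 3.75 ± 0.589 CPM in AL and did not pass (-0.07, adjusted p = 0.78). Eno1 shares 49.3% of its 51-base words with other genes, above all with its near copies Gm5506 and Gm13699, which also fell (-1.61, adjusted p = 0.0030, and -1.66, adjusted p = 0.0014). These are the values of the reads that could be placed, and the 3 genes cannot be told apart in the rest.

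Pgam1, the phosphoglycerate mutase, fell to 2.83 ± 0.388 CPM in DR, against 4.36 ± 0.186 CPM in AL (log2 fold change -0.62 with SE 0.15, adjusted p = 0.0072 by edgeR). Pgk1 (-0.35, adjusted p = 0.085) did not pass although its DR libraries, at 3.44 to 3.97 CPM, lay just below those of AL, at 3.99 to 5.73 CPM. Gapdh, with 15.1 ± 2.09 CPM in DR and 15.8 ± 2.37 CPM in AL (SD, n = 4 and 5), did not pass either (-0.06, SE 0.14, adjusted p = 0.74). These 3 levels are far below those of Tpi1 and Aldoa per kilobase, at 8.18 CPM in DR and 8.55 CPM in AL for Gapdh, against 39.8 and 74.3 CPM for Tpi1. Of the 51-base words of Gapdh 58.1% also occur in other genes, 213 of them pseudogenes, and of those of Pgk1 67.9% and of Pgam1 41.4%. Reads that aligned to several places were set aside by the counting and made up 10.4% to 11.8% of each DR library and 11.3% to 13.6% of each AL library (exact permutation p = 0.0714, two-sided). The levels and fold changes of these genes therefore rest on part of their transcripts. Among genes that share words with Gapdh, 3000002C10Rik, with 5.60% of Gapdh's words, fell (log2 fold change -1.36, adjusted p = 0.0091 by edgeR). Gm5069, with 8.07%, did not pass (0.04, adjusted p = 0.94 by edgeR).

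**Figure D3:**
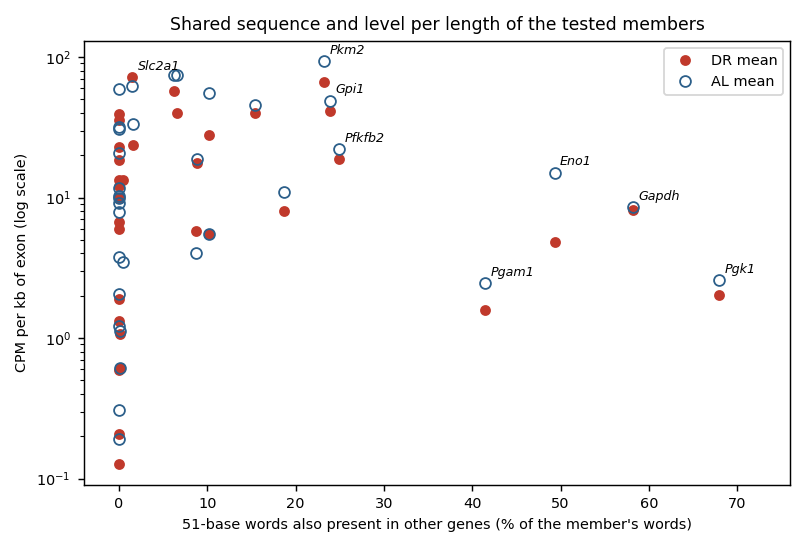
Share of a gene's 51-base words, the read length, that also occur in transcripts of other genes (x axis, percent) against the mean level per kilobase of exon (y axis, log scale) in DR (filled) and AL (open) for the 34 tested genes. Pgk1, Gapdh, Eno1 and Pgam1 have the largest shares, from 41.4% to 67.9%.

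The monocarboxylate transporters, which carry lactate and pyruvate across the membrane, did not pass. Slc16a1 had 50.9, 14.5, 25.7 and 27.3 CPM in DR, against 26.5, 39.0, 33.7, 71.6 and 30.5 CPM in AL. DR replicate 1 and AL replicate 4 stand above the other libraries of their group (log2 fold change -0.45 with SE 0.36, adjusted p = 0.35 by edgeR; -0.84 without DR replicate 1, adjusted p = 0.069, and -0.14 without AL replicate 4, adjusted p = 0.75). Slc16a3, at 0.969 ± 0.514 CPM in DR and 1.43 ± 0.367 CPM in AL (SD, n = 4 and 5), passed only without DR replicate 1 (-0.57, adjusted p = 0.21; -0.98 without it, adjusted p = 0.029).

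In the pentose phosphate pathway 4 of 7 genes fell (57.1%, against 21.7% of all tested genes) and none rose (against 19%). In the non-oxidative branch 3 of 4 fell (75%), and the groups did not overlap for any of the 4. Over all tested genes 32.9% had groups that did not overlap, 17% with DR below AL and 15.9% with DR above it. Of the 34 tested pathway genes 13 had every DR library below every AL library and 2, Pfkfb3 and Aldoc, above. Taldo1, the transaldolase, stood at 34.4, 36.9, 41.4 and 39.0 CPM in DR, against 60.9, 70.2, 88.7, 81.6 and 76.9 CPM in AL (log2 fold change -0.997 with SE 0.11, adjusted p = 1.1e-04 by edgeR). Tkt, the transketolase, stood at 129.96, 117, 137 and 121 CPM in DR, against 186, 194, 199.9, 199.4 and 174 CPM in AL (-0.59, SE 0.08, adjusted p = 3.6e-04). In both, the DR libraries form a narrow range well below that of AL. Rpe, the ribulose phosphate epimerase, averaged 21.8 ± 1.67 CPM in DR and 29.8 ± 2.02 CPM in AL (-0.45, SE 0.09, adjusted p = 0.0024), with 18.7% of its words shared with 1110028C15Rik, which rose (0.39). Rpia, the isomerase beside it, had -0.23 (adjusted p = 0.074), and passed with upper-quartile scaling (adjusted p = 0.033). The branch summed to 206, 195, 221 and 195 CPM in DR, against 295, 315, 342, 332 and 303 CPM in AL.

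The oxidative branch changed less evenly. Its entry enzyme G6pdx, the glucose 6-phosphate dehydrogenase, averaged 14.7 ± 0.900 CPM in DR and 14.6 ± 1.51 CPM in AL (log2 fold change 0.01 with SE 0.11, adjusted p = 0.95 by edgeR). Pgls, the lactonase, averaged 28.4 ± 3.77 CPM in DR and 37.6 ± 2.04 CPM in AL and fell (-0.41, SE 0.10, adjusted p = 0.0071). Pgd, the second NADPH-yielding enzyme, had 40.9 ± 1.43 CPM in DR and 45.7 ± 3.40 CPM in AL (SD, n = 4 and 5; -0.16, adjusted p = 0.12), and passed with upper-quartile scaling (adjusted p = 0.045). The gluconeogenic fructose bisphosphatases were near 0, with 10 counts over the DR libraries and 7 over the AL libraries for Fbp1, and 22 and 14 for Fbp2.

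**Figure D4:**
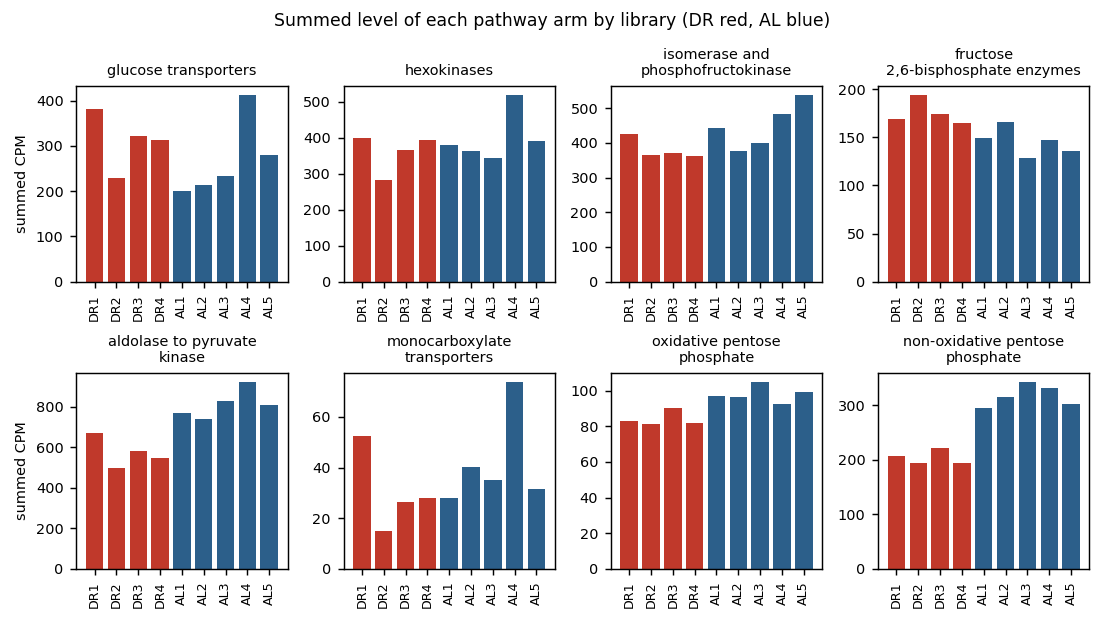
Summed CPM of the genes of each pathway arm (y axes, from 0) in each library, DR in red on the left and AL in blue on the right. The arm from aldolase to pyruvate kinase and both pentose phosphate branches are lower in every DR library than in any AL library, while AL replicate 4 stands out for the hexokinases and monocarboxylate transporters.

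Isoform balance was compared within each library as the log2 ratio of a pair's counts, for 8 pairs. The test was an exact two-sided permutation of the diet labels, adjusted over the 8. Pairs were chosen with earlier results of these data known and use the same counts, so their p-values add no independent support to the calls of single genes. The mean ratio of Pfkfb3 to Pfkfb2 was -0.36 ± 0.24 in DR and -2.63 ± 0.76 in AL (SD, n = 4 and 5; difference 2.27, exact permutation p = 0.00794, the smallest possible, adjusted p = 0.0317). That of Aldoc to Aldoa was -2.29 ± 0.22 in DR and -3.29 ± 0.23 in AL (difference 1.01, exact p = 0.00794, adjusted p = 0.0317). In these 2 pairs, in Eno2 to Eno1 (difference 1.52, exact p = 0.0159, adjusted p = 0.0317) and in Pfkp to Pfkl (0.64, exact p = 0.0238, adjusted p = 0.0381) every DR library had a higher ratio than every AL library. Pfkm to Pfkl (0.69, exact p = 0.0159, adjusted p = 0.0317) passed with overlapping groups. Hk2 to Hk1 was 0.50 ± 0.44 in DR and -0.19 ± 0.57 in AL and did not pass (difference 0.69, exact p = 0.111, adjusted p = 0.148), nor did Slc2a3 to Slc2a1 (-0.11, adjusted p = 0.770) and Slc16a3 to Slc16a1 (-0.17, adjusted p = 0.499). With 1 library left out, Pfkp to Pfkl passed in 1 and Pfkm to Pfkl in 2 of the 9 sets, and the other 3 pairs in 5 each (adjusted p up to 0.0571 where they did not).

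**Figure D5:**
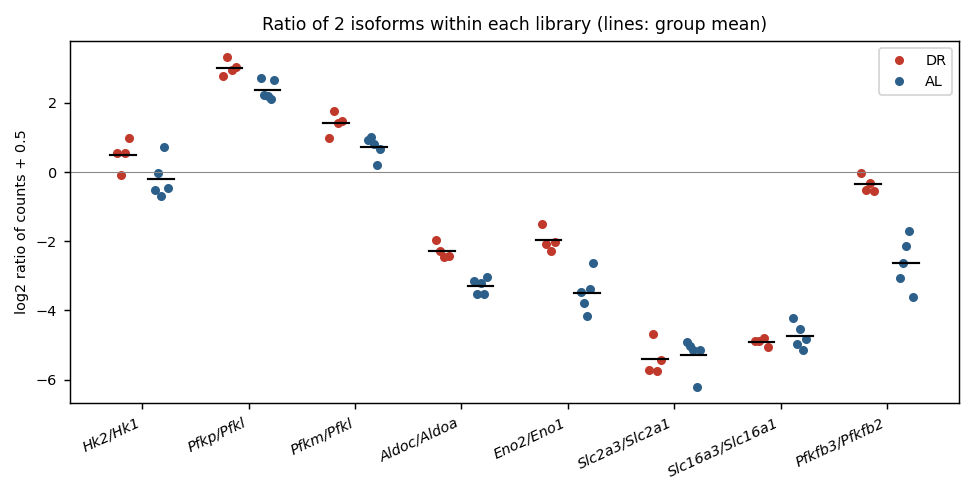
Log2 ratio of the counts (+ 0.5) of 2 isoforms (y axis) in each DR library (red, left) and AL library (blue, right) for 8 pairs, with group means as lines. The ratios of Pfkfb3 to Pfkfb2, Aldoc to Aldoa, Eno2 to Eno1 and Pfkp to Pfkl separate the diets.

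Of 70 further genes of glucose metabolism, 57 were tested, and 13 were higher and 16 lower in DR, or 22.8% and 28.1%, near the 19% and 21.7% of all tested genes. Glycogen genes were mostly lower, with 8 of 12 fallen (66.7%) and 1 risen (8.33%). The brain-type glycogen phosphorylase Pygb averaged 54.7 ± 8.20 CPM in DR and 140.1 ± 23.0 CPM in AL (SD, n = 4 and 5; log2 fold change -1.36 with SE 0.14, adjusted p = 7.3e-05 by edgeR), and the phosphorylase kinase subunit Phkb fell by 0.65 on the log2 scale. The muscle type Pygm rose (1.93, SE 0.35, adjusted p = 0.0015 by edgeR). Of other glycolytic isoforms 3 of 8 rose, none fell. The muscle enolase Eno3 rose (0.76, SE 0.10, adjusted p = 2.0e-04 by edgeR), with no overlap of the groups. For the sperm type Gapdhs (0.59, SE 0.16) and the muscle mutase Pgam2 (1.18, SE 0.36) the groups overlap. Pgam2 was also low, at 2.60 ± 1.05 CPM in DR and 1.15 ± 0.492 CPM in AL. The skeletal muscle markers given above were at most 2.88 CPM in sum, and the only tested one, Mylpf, also rose (0.72, adjusted p = 0.026); their part in these rises was not tested. Of other transporters, 4 of 8 fell and none rose, among them Bsg, the chaperone of the monocarboxylate transporters (-0.36), Slc2a13 (-1.27) and Slc2a6 (-1.66). Slc2a13 was low, at 0.609 ± 0.204 CPM in DR and 1.48 ± 0.544 CPM in AL. Slc2a6 was lower still, at 0.244 ± 0.128 CPM and 0.777 ± 0.384 CPM, and its groups overlap. Pck2, the mitochondrial phosphoenolpyruvate carboxykinase, was the only riser of 4 genes of pyruvate use and gluconeogenesis (0.81, SE 0.10, adjusted p = 1.8e-04). Of 5 other pentose phosphate genes, the ribose phosphate users Prps2 (-0.51) and Prps1 (0.56) moved in opposite directions, and of 7 polyol, fructose and hexosamine genes Gfpt1 fell (-0.48) and the fructokinase Khk rose (0.37).

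Of 13 regulators of these genes, 6 rose (46.2%, against 19% of all tested genes) and 2 fell (15.4%, against 21.7%). The thioredoxin-binding arrestin Txnip, which lowers glucose uptake, averaged 4338 ± 747 CPM in DR and 499.8 ± 79.0 CPM in AL (log2 fold change 3.12, SE 0.17). Mlxipl, the carbohydrate response factor ChREBP, had 16.5 ± 2.77 CPM in DR and 8.62 ± 0.987 CPM in AL (0.94, SE 0.14, edgeR adjusted p = 5.0e-04). Hif1a, the hypoxia factor that drives many glycolytic genes, had 155 ± 5.59 CPM in DR and 226 ± 46.9 CPM in AL (SD, n = 4 and 5; -0.55, SE 0.14, adjusted p = 0.0083). Epas1, another hypoxia factor, rose (1.14, SE 0.35, edgeR adjusted p = 0.024), and so did Myc (0.98, SE 0.29, adjusted p = 0.02). For both the groups overlap. Transcript levels of these factors say nothing of their activity.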

How the data were processed

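RNA was sequenced as single reads of 51 cycles. The deposited files hold raw read counts per gene symbol, and the authors applied no normalization. Per the submitters' processing notes TopHat2 2.1.0, Bowtie and HTSeq 0.11.2 were used with build mm9. No source used here names the annotation or the strand setting. None states a rule for reads with several alignments, but the counts list such reads on a line that names no gene. The 6 lines that name no gene entered no total (25.9% to 26.8% of all reads in DR libraries and 26.6% to 30.7% in AL libraries, exact permutation p = 0.0476, two-sided). No 2 libraries of a diet were alike within sampling noise (16 pairs, chi-square over its degrees of freedom 24.6 to 109.6), so all counted.

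Counts were filtered with filterByExpr, TMM-scaled and tested with edgeR 4.0.16 (R 4.3.3) by a quasi-likelihood fit on diet, with Benjamini-Hochberg adjustment over all tested genes and a threshold of 0.05. Standard errors (SE) are those implied by the F statistic. Alternatives were DESeq2 1.42.0 size factors and its Wald test, upper-quartile or no scaling, other filters, limma-voom 3.58.1 with quality weights, a replicate block, and leaving out each library. Ratios used a pseudocount of 0.5.

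Exon lengths and shared 51-base words (exact matches, both strands) came from coding transcripts of GENCODE M21, promoters and symbols from RefSeq (GRCm38.p6), with all 37 symbols matched, none of them the build of the counts. Mismatches that an aligner allows would add shared words. Members, lists, pairs and motifs were chosen with earlier results of these data known. All 37 members are accounted for; of the 70 further genes, the text names up to 3 per list with the smallest p among those past the threshold. Near copies, marker genes, Epas1 and Myc fall outside that rule and were chosen after their values were seen.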

Additional observations from a re-analysis of the deposited data

Results flagged for a closer look

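Within-group values were examined in 100 sets, of which Dixon's ratio marked 7 in which 1 library lay far from the others; chance alone marks about 5% of sets. AL replicate 4 was the library in 5 of these, but the sets are not independent. The hexokinase sum includes Hk2 and the monocarboxylate transporter sum includes Slc16a1, so these sets count in part the same reads. It had 324 CPM of Hk2, the other AL libraries 131 to 179 CPM, and 71.6 CPM of Slc16a1, the others 26.5 to 39.0 CPM. It also had summed levels of 518 CPM for the hexokinases (others 342 to 390.1 CPM) and 73.7 CPM for the monocarboxylate transporters (others 27.9 to 40.2 CPM). Its log2 ratio of Slc2a3 to Slc2a1 was -6.21, with -5.15 to -4.92 in the others. AL replicate 5 had 6.47 CPM of Slc2a3, against 4.96 to 5.02 CPM in the other AL libraries. In DR, replicate 1 had 426 CPM for Gpi1 and the phosphofructokinases together, the other DR libraries 362 to 372 CPM.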

How the results depend on the processing

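Of 577 refits of single pathway genes over 17 alternatives, 556 kept their direction where called and their side of the threshold, 18 lost a call (Slc2a8, Slc2a12 and Gpi1) and 3 gained one (Slc16a3, Pgd and Rpia); none reversed. The number of pathway genes higher in DR, 4, was 2 with library size as the only scaling, where Slc2a8 and Slc2a12 did not pass. Without 1 library, 16 to 18 pathway genes passed, 3 to 4 higher and 13 to 14 lower, and 5176 to 6402 of all genes. Ratio differences without 1 library were 0.54 to 0.72 for Pfkp to Pfkl, 0.55 to 0.83 for Pfkm to Pfkl, 0.90 to 1.07 for Aldoc to Aldoa, 1.35 to 1.73 for Eno2 to Eno1 and 2.03 to 2.504 for Pfkfb3 to Pfkfb2. Without an AL library the smallest exact p is 0.0286, which passes adjustment only if at least 5 of the 8 ratios reach it: 5 passed without AL replicate 2 (adjusted p = 0.0457) and none without any other AL library. Deviations of same-numbered libraries of the diets had correlations of 0.03 to 0.23 over genes, with 2 of 4 pairs above 0.1. Differently numbered libraries had -0.28 to 0.42, which encloses that range, so numbers were not taken as pairs. The fit with the replicate block also leaves out AL replicate 5, which has no partner: 17 pathway genes and 6413 of all genes passed and Gpi1 did not (adjusted p = 0.077), against 17, 6402 and, for Gpi1, adjusted p = 0.053 without AL replicate 5 and with no block. Paired ratio differences were 0.71 for Pfkp to Pfkl, 0.67 for Pfkm to Pfkl, 1.07 for Aldoc to Aldoa, 1.73 for Eno2 to Eno1 and 2.03 for Pfkfb3 to Pfkfb2; with 4 pairs no exact p below 0.125 is possible. Depth limits Hk3, Fbp1 and Fbp2, which had at most 7 counts in a library.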

Other observations

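Libraries differed in level across many pathway genes at once. Of the 34 tested genes, DR replicate 1 was the highest DR library for 17 and DR replicate 2 the lowest for 15; AL replicate 4 was the highest AL library for 12. Slc2a1, Pfkl, Pfkfb3, Pfkfb4, Aldoa, Pgam1, Eno2, Pkm2, Slc16a1 and Slc16a3 were highest in DR replicate 1 within DR and also in AL replicate 4 within AL. Endothelial markers summed to 37.04 CPM and immune markers to 40.1 CPM in DR replicate 1 and to 22.8 and 30.6 CPM in DR replicate 2. They summed to 9.16 and 3.26 CPM in AL replicate 4 and were highest within AL in replicate 1, at 18.1 and 32.2 CPM, which was the highest AL library for 1 gene.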
